A study of Mus musculus with 12 samples.

Results

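The 10 genes described here encode core subunits of Polycomb repressive complex 1 (PRC1). They are Ring1 and Rnf2, Pcgf1, Pcgf2, Pcgf3, Bmi1, Pcgf5 and Pcgf6, and Cbx2 and Cbx7, and they were selected from the 24736 genes of the table with their measured values in all 4 groups already known. Their levels and differences are therefore given as a description, without a test. PRC1 is a histone-modifying complex that keeps developmental genes silent. RING1 or RNF2 (RING1B) places ubiquitin on histone H2A. Each complex holds a single PCGF protein, and the PCGF paralogue decides which further subunits join. Complexes built on PCGF2 (MEL18) or BMI1 (PCGF4) can carry a CBX protein that reads the methyl mark left on histone H3 by PRC2, and are called canonical. Those built on the other PCGF proteins carry RYBP or YAF2 in place of a CBX protein. Embryonic stem cells use CBX7 as their main CBX reader, and CBX2 and other paralogues are associated with differentiation.

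Polyadenylated RNA was sequenced from 12 cultures of mouse embryonic stem cells differentiated for 72 h, with 3 biological replicates in each of 4 groups. All cultures received 10 ng/ml bFGF and 5 µM of LGK974, an inhibitor of WNT ligand secretion. EpiLC (epiblast-like cells) were wild-type cells of the XY HM1 TetON line in these factors alone. CEpiLC (caudal epiblast-like cells) were the same cells with CHIR99021, a GSK3 inhibitor that activates WNT signalling, from day 2 to day 3. SOX2-OFF and SOX2-ON were cells of the SOX2 TetON line, derived from the same HM1 TetON line, with the same CHIR99021 pulse. This line is Sox2-/- and carries a doxycycline-inducible Sox2 transgene in the Hprt locus, with the transactivator driven from Rosa26. It came from picked clones, so that clone and genotype cannot be told apart. Doxycycline was withdrawn during differentiation in SOX2-OFF and kept at 1 µg/ml in SOX2-ON. No SOX2 TetON culture without CHIR99021 was analysed here. The SOX2 TetON groups therefore differ from CEpiLC in line as well as in SOX2, and SOX2-ON differs from SOX2-OFF in doxycycline as well.

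The libraries held 10408252 to 27337740 expected counts, and the members' counts were whole, to within 0.005 counts, in all 12 libraries. The smallest count of a member was 76, for Ring1, and the common biological coefficient of variation was 0.105. Sox2 was at 119 to 171 TPM (length-normalised transcript abundance, on a scale common to all libraries) in EpiLC cultures, 7.78 to 13.7 in the CEpiLC group, 12.3 to 21.2 in SOX2-OFF cells and 173 to 215 in SOX2-ON cells. The summed level of 5 caudal epiblast and streak markers was 1.45 to 2.44 TPM in EpiLC cultures, 1308 to 1486 in the CEpiLC group, 912 to 931 in SOX2-OFF cells and 225 to 268 in SOX2-ON cells. Most of the SOX2-OFF sum was T, at means of 0.55, 711, 809 and 152 TPM in this order of groups. Cdx2 was at 0.13, 225, 32.4 and 65.65 TPM and Nkx1-2 at 0.89, 344, 43.1 and 25.6. Wnt3a was at 0.17, 58.6, 10.7 and 0.90 TPM and Fgf8 at 0.29, 62.1, 26.3 and 3.94. From CEpiLC to SOX2-OFF the mean of T thus rose, and that of each other marker of this list fell. The 5 epiblast markers summed to 2489 to 2956 TPM in EpiLC, 839 to 1180 in CEpiLC, 952 to 1104 in SOX2-OFF and 1338 to 1547 in SOX2-ON. Outside EpiLC most of the sum was Pou5f1, at means of 887, 843, 851 and 1075 TPM in this order of groups. Otx2 was at 165, 2.62, 4.84 and 13.3 TPM and Fgf5 at 79.5, 5.19, 16.6 and 4.48. Utf1 was at 269, 16.3, 49.5 and 124 TPM and Dnmt3b at 1354, 145, 131 and 222. The 8 extraembryonic endoderm markers summed to 9.66 to 12.9 TPM in EpiLC cultures, 6.33 to 9.57 in the CEpiLC group, 283 to 329 in SOX2-OFF cells and 119 to 334 in SOX2-ON cells. Of these, the endocytic genes Dab2 and Cubn were the most abundant in SOX2 TetON cells, Afp stayed below 0.1 TPM on average in every group, and Ttr was listed at 0 in all CEpiLC libraries. The part of these markers in the members' levels was not tested. The 7 feeder fibroblast markers summed to 38.2 to 55.3, 53.2 to 83.0, 18.2 to 37.9 and 21.8 to 41.4 TPM in the same order of groups. They did not move together. By mean, Thy1, Col1a1 and Col3a1 were lower in both SOX2 TetON groups than in both wild-type groups. Dcn and Lum were higher, and Col1a2 and Postn were neither. Thy1, the largest part in wild-type cells, was at 28.0, 42.1, 8.31 and 9.34 TPM. Dcn was at 1.95, 1.40, 3.11 and 3.54 TPM. In these bulk samples, fewer cells of a type and less RNA per cell cannot be told apart.

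Chromosome 11, which holds Pcgf2 and Cbx2, and chromosome 6, which holds Pcgf1, stood apart as a whole between the lines. Against CEpiLC, the median log2 fold change (log2FC) of 676 chromosome 11 genes was -0.51 in SOX2-OFF and -0.54 in SOX2-ON, with 6.21% and 6.51% of these genes above 0. The median of 378 chromosome 6 genes was 0.57 in both groups, with 91.5% and 90.2% of the genes above 0. Chromosome 8, which holds no member, was shifted likewise, with medians of 0.62 and 0.59. The median of the other chromosomes that hold a member lay between -0.03 and 0.05 in both comparisons. Between CEpiLC and EpiLC, and between SOX2-ON and SOX2-OFF, the medians of all these chromosomes lay between -0.04 and 0.02. Log2FC with this chromosome-wide shift taken out are given beside the members it touches. TPM, their ratios and shares, and correlations keep the shift.

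Promoter windows were read from RefSeq (GRCm38.p6) for 8 of the 10 members, with no entry for Pcgf1 and Cbx2. Bmi1 and Pcgf2, the closest paralogues, went in opposite directions in the SOX2 TetON line, although Pcgf2 was lower by about as much as the median of chromosome 11. Cbx7 was the member with the largest difference under CHIR99021. The 250 bases before the listed start of these genes, which for Pcgf2 and Cbx7 lies inside the span of the gene, are printed 5′ to 3′ in the direction of the gene, with CG dinucleotides in capitals. The windows are chr2:18676768-18677017 on the plus strand, chr11:97699649-97699898 on the minus strand and chr15:79932647-79932896 on the minus strand.
Bmi1: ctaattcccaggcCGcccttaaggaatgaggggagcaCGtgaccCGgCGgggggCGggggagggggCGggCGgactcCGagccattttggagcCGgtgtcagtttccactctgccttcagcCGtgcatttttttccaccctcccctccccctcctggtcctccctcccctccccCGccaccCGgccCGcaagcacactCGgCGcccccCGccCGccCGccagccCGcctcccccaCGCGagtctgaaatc
Pcgf2: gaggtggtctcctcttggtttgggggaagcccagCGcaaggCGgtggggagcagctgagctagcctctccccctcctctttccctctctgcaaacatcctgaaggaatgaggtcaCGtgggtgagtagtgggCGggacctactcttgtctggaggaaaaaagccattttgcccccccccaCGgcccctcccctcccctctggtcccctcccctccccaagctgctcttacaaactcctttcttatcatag
Cbx7: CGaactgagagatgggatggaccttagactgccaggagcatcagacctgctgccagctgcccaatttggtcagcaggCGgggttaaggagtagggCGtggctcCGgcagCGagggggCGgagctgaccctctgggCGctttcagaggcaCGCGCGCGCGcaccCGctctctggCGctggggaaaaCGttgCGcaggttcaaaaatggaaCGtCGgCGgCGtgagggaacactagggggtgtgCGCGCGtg

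In the whole windows, from 250 bases before to 50 after the start, Bmi1 held 23 CG dinucleotides, Pcgf2 held 10 and Cbx7 held 33, against a median of 7 over 32851 windows of all genes. Those of the other members with a window held 22 (Pcgf6), 23 (Pcgf3), 30 (Rnf2) and 37 (Ring1), and the 3 Pcgf5 windows held 5, 34 and 35. The SOX core CATTGT and the TCF/LEF core CTTTGAT were searched on both strands. The TCF/LEF core, found in 3.73% of all windows, had no match in the members' windows. The SOX core, found in 12.6% of all windows, had 1 match, on the minus strand of the Bmi1 window and 34 bases after its start (chr2:18677044-18677065). It reads ACAATG on the strand of the gene and is shown in capitals.
Bmi1 SOX core: cgggagagACAATGgggaggtt

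The catalytic subunits were unequal in level, and their differences between groups were small. Rnf2, the main E3 ligase of PRC1 in stem cells, was at 89.7, 87.0 and 91.2 TPM in EpiLC cultures, 81.4, 83.2 and 75.0 in the CEpiLC group, 83.1, 86.6 and 84.1 in SOX2-OFF cells and 90.2, 103 and 95.0 in SOX2-ON cells. The 3 CEpiLC libraries were all below the 3 EpiLC libraries, and those of SOX2-ON were all above CEpiLC and SOX2-OFF. Ring1, its paralogue, was at 8.57, 9.17 and 7.70 TPM in EpiLC cultures, 9.60, 10.3 and 9.89 in the CEpiLC group, 6.90, 10.7 and 6.82 in SOX2-OFF cells and 8.36, 8.11 and 7.77 in SOX2-ON cells. In SOX2-OFF 1 library was above all CEpiLC libraries and the other two were below. Per length of transcript, Rnf2 was above Ring1 by a ratio of 10.6 ± 1.18 in EpiLC cultures, 8.05 ± 0.45 in the CEpiLC group, 10.8 ± 2.35 in SOX2-OFF cells and 11.9 ± 0.98 in SOX2-ON cells (SD, n = 3). No difference of either gene in any of the 4 comparisons went beyond 0.33 on the log2 scale.

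**Figure D1:**
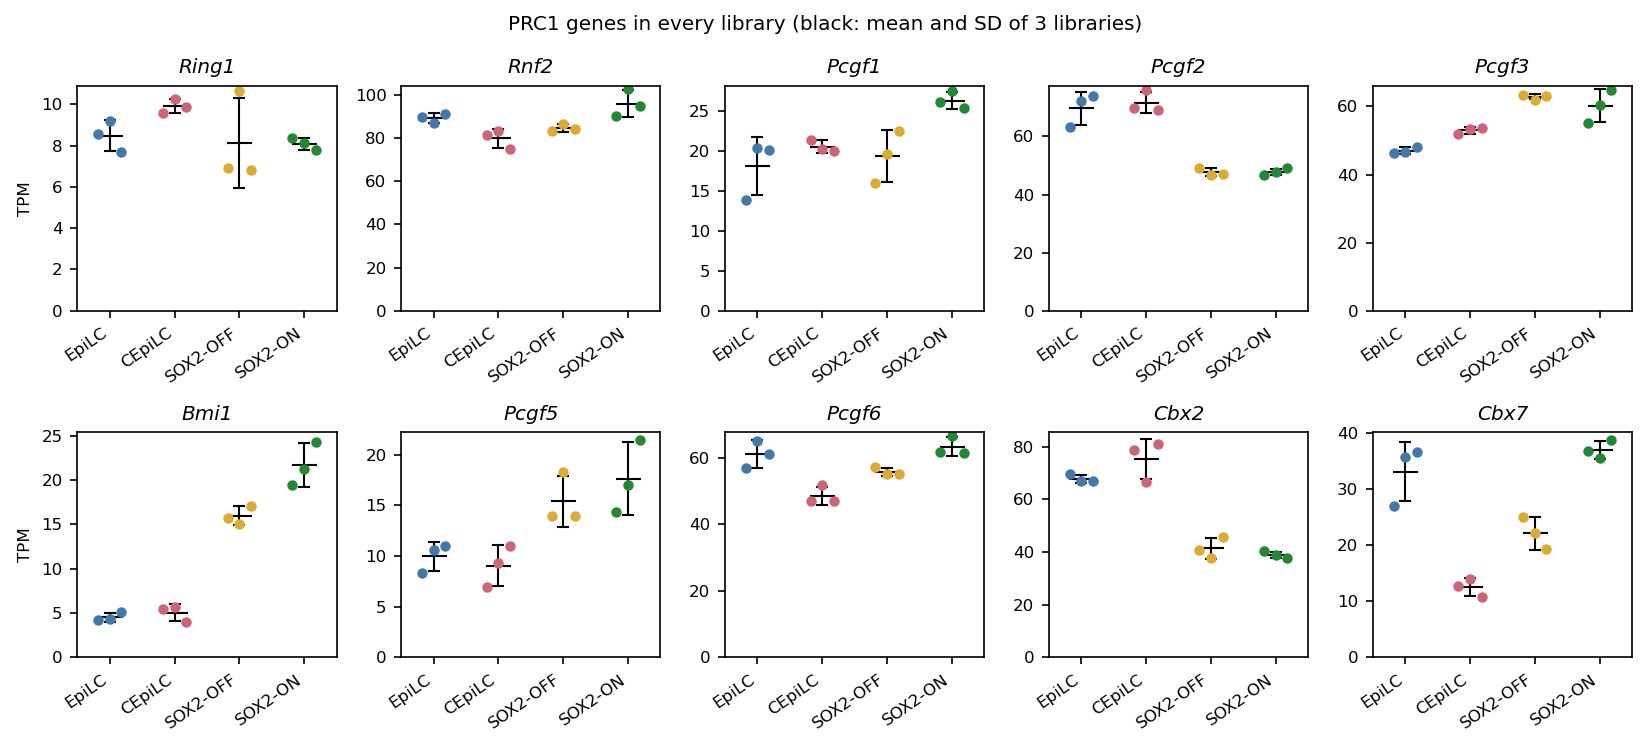
TPM (vertical axis, from 0) of the 10 PRC1 genes in each of the 12 libraries by group, with a point per library and black bars for the mean and SD of 3 libraries. Bmi1 is at 3.97 to 5.67 TPM in EpiLC and CEpiLC and at 15.1 to 24.4 TPM in the SOX2 TetON groups, Cbx7 is lowest in CEpiLC at 10.7 to 14.0 TPM, and Pcgf2 and Cbx2 are lower in both SOX2 TetON groups.

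Of the PCGF genes of canonical PRC1, Bmi1 had the largest differences. It was at 4.17, 4.27 and 5.08 TPM in EpiLC cultures, 5.49, 5.67 and 3.97 in the CEpiLC group, 15.7, 15.1 and 17.1 in SOX2-OFF cells and 19.5, 21.3 and 24.4 in SOX2-ON cells. EpiLC and CEpiLC overlapped, with a log2FC of 0.20 ± 0.13 (SE), and every SOX2-ON library was above every SOX2-OFF library. Against CEpiLC the log2FC was 1.65 ± 0.13 in SOX2-OFF and 2.04 ± 0.13 in SOX2-ON, folds of 3.14 and 4.12, and it was 0.39 ± 0.12 between SOX2-ON and SOX2-OFF. The median of its chromosome was 0.00 and 0.01 in the comparisons with CEpiLC. The difference from CEpiLC was present with doxycycline and without it, and SOX2-ON and SOX2-OFF differed by less. Its cause was not tested.

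Commd3, which encodes a trafficking protein and ends 786 bp before Bmi1 (GRCm38, chr2:18677018-18686629), is the nearest tested gene. Its log2FC against CEpiLC was 1.28 ± 0.10 in SOX2-OFF (edgeR adjusted p = 6.9e-07) and 1.18 ± 0.10 in SOX2-ON (7.7e-07). Commd3 also rose in CEpiLC against EpiLC, with an edgeR log2FC of 1.31 ± 0.11 (1.2e-06), and had a log2FC of -0.10 ± 0.10 in SOX2-ON against SOX2-OFF (0.48). Pip4k2a, on the other side at 155625 bp, did not pass the test in any comparison. Whether reads of Commd3 and Bmi1 come from shared transcripts was not tested.

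Pcgf2, the paralogue that shares the canonical complexes with Bmi1, was at 63.2, 72.3 and 73.8 TPM in EpiLC cultures, 69.9, 75.9 and 69.2 in the CEpiLC group, 49.3, 46.7 and 47.2 in SOX2-OFF cells and 46.6, 47.7 and 49.0 in SOX2-ON cells. The wild-type groups overlapped, as did the SOX2 TetON groups in TPM though not on log2 CPM, and all 6 SOX2 TetON libraries were below all 6 wild-type libraries. The log2FC against CEpiLC was -0.57 ± 0.06 in SOX2-OFF and -0.62 ± 0.06 in SOX2-ON. With the chromosome-wide shift taken out it was -0.05 ± 0.07 and -0.08 ± 0.06. Its neighbours Cisd3 and Psmb3, at 195 and 999 bp, had log2FC of -0.60 ± 0.15 and -0.62 ± 0.07 in SOX2-OFF. The ratio of Pcgf2 to Bmi1 transcripts, per length, was 15.5 ± 1.25 in EpiLC cultures and 14.5 ± 2.54 in the CEpiLC group, against 2.99 ± 0.21 in SOX2-OFF cells and 2.22 ± 0.19 in SOX2-ON cells (SD, n = 3).

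**Figure D2:**
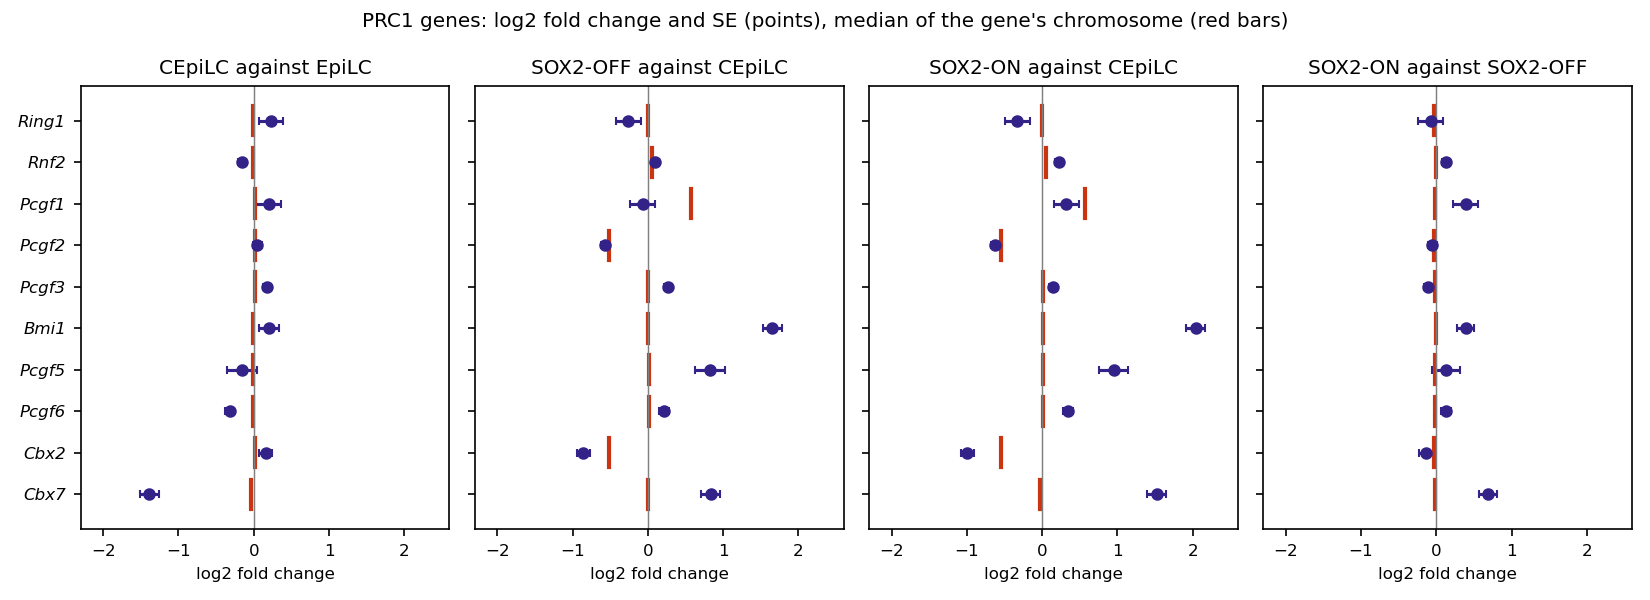
log2 fold change (horizontal axis) of the 10 PRC1 genes in 4 comparisons, with points and bars for the estimate and its SE and red bars for the median log2 fold change of the gene's chromosome. Pcgf2 lies on the bar of chromosome 11 in both comparisons of the SOX2 TetON line with CEpiLC and Cbx2 to its left, while Bmi1, Pcgf5 and Cbx7 lie far to the right of bars that are at about 0.

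Of the PCGF genes of the non-canonical complexes, Pcgf6, whose complex binds germline gene promoters with MGA, MAX and E2F6, was at 57.0, 65.2 and 61.2 TPM in EpiLC cultures, 47.1, 51.8 and 47.0 in the CEpiLC group, 57.1, 55.0 and 55.3 in SOX2-OFF cells and 61.7, 66.6 and 61.6 in SOX2-ON cells. CEpiLC was the lowest group, without overlap with any other. The log2FC was -0.32 ± 0.06 in CEpiLC against EpiLC, 0.21 ± 0.06 in SOX2-OFF and 0.34 ± 0.06 in SOX2-ON against CEpiLC, and 0.13 ± 0.06 in SOX2-ON against SOX2-OFF.

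Pcgf5 and Pcgf3, which build related complexes with AUTS2 and FBRS family proteins, were both higher in the SOX2 TetON line. Pcgf5 was at 8.34, 10.6 and 11.03 TPM in EpiLC cultures, 6.93, 9.29 and 10.96 in the CEpiLC group, 13.9, 18.3 and 13.9 in SOX2-OFF cells and 14.3, 17.1 and 21.5 in SOX2-ON cells, and its log2FC against CEpiLC was 0.82 ± 0.20 in SOX2-OFF and 0.95 ± 0.20 in SOX2-ON. Pcgf3 was at 46.3, 46.6 and 48.2 TPM in EpiLC cultures, 51.8, 53.5 and 53.5 in the CEpiLC group, 63.4, 62.0 and 63.1 in SOX2-OFF cells and 55.2, 60.4 and 64.9 in SOX2-ON cells. For both genes the SOX2 TetON libraries were all above those of CEpiLC, and SOX2-ON and SOX2-OFF overlapped in TPM. On log2 CPM Pcgf3 did not overlap between these groups, with a log2FC of -0.12 ± 0.05 in SOX2-ON against SOX2-OFF. The log2FC of Pcgf3 was 0.18 ± 0.05 in CEpiLC against EpiLC, 0.26 ± 0.05 in SOX2-OFF and 0.15 ± 0.05 in SOX2-ON against CEpiLC.

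Pcgf1, the subunit of the KDM2B and BCOR complex that recognises unmethylated CpG islands, was at 13.9, 20.4 and 20.2 TPM in EpiLC cultures, 21.5, 20.3 and 20.03 in the CEpiLC group, 16.1, 19.7 and 22.6 in SOX2-OFF cells and 26.2, 27.5 and 25.4 in SOX2-ON cells. SOX2-ON was above all other libraries, and the other groups overlapped. The log2FC in SOX2-ON was 0.32 ± 0.16 against CEpiLC and 0.39 ± 0.16 against SOX2-OFF. In SOX2-OFF against CEpiLC it was -0.07 ± 0.17. Both values against CEpiLC lay below the chromosome 6 median of 0.57, and with this shift taken out they were -0.25 ± 0.17 in SOX2-ON and -0.64 ± 0.17 in SOX2-OFF.

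Summed over the 6 PCGF genes, the level was 211 ± 15.3 TPM in EpiLC cultures, 208 ± 7.38 in the CEpiLC group, 217 ± 1.86 in SOX2-OFF cells and 237 ± 11.98 in SOX2-ON cells (SD, n = 3). The most abundant genes differed between the lines, but these shares keep the chromosome 11 shift. Pcgf2 lies on that chromosome. Its log2FC against CEpiLC was -0.57 in SOX2-OFF and -0.62 in SOX2-ON, beside chromosome medians of -0.51 and -0.54. In EpiLC they were Pcgf2 with 33.1 ± 0.44% of the sum and Pcgf6 with 29.0 ± 1.00%. In CEpiLC the first was Pcgf2 with 34.5 ± 0.64% of the sum and then Pcgf3 with 25.5 ± 0.72%. In SOX2-OFF they were Pcgf3 with 28.9 ± 0.42% and Pcgf6 with 25.7 ± 0.71%, and in SOX2-ON Pcgf6 with 26.8 ± 1.54% and Pcgf3 with 25.4 ± 0.84%, which overlapped between libraries. Bmi1 made up 2.14 ± 0.19% of the sum in EpiLC cultures, 2.42 ± 0.42% in the CEpiLC group, 7.36 ± 0.43% in SOX2-OFF cells and 9.14 ± 0.64% in SOX2-ON cells.

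**Figure D3:**
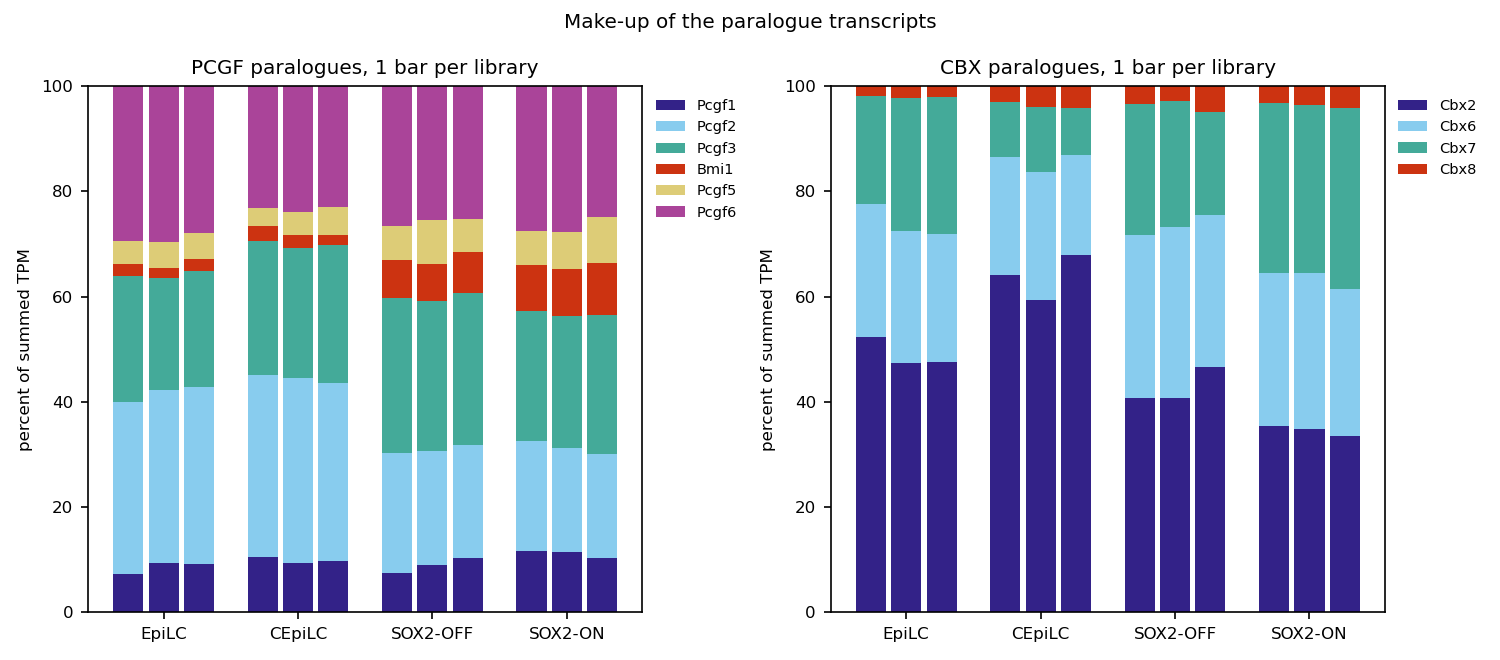
Share of each paralogue in the summed TPM of the 6 PCGF genes (left) and of Cbx2, Cbx6, Cbx7 and Cbx8 (right), in percent (vertical axis), with a stacked bar per library and 3 bars per group. Bmi1 takes 1.94 to 2.71% of the PCGF sum in wild-type libraries and 6.96 to 9.87% in those of the SOX2 TetON line, and Cbx7 takes 8.99 to 12.4% of the CBX sum in CEpiLC and 31.9 to 34.4% in SOX2-ON.

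Of the CBX readers, Cbx7 had a group apart in each comparison. It was at 27.0, 35.6 and 36.6 TPM in EpiLC cultures, 12.7, 14.0 and 10.7 in the CEpiLC group, 24.98, 22.1 and 19.2 in SOX2-OFF cells and 36.7, 35.6 and 38.6 in SOX2-ON cells. CEpiLC was the lowest group and SOX2-OFF the next, each without overlap with the others, while SOX2-ON and EpiLC overlapped. The log2FC was -1.39 ± 0.12 in CEpiLC against EpiLC, 0.83 ± 0.12 in SOX2-OFF and 1.52 ± 0.12 in SOX2-ON against CEpiLC, and 0.69 ± 0.12 in SOX2-ON against SOX2-OFF. The median of chromosome 15, which holds Cbx7, lay within 0.04 of 0 in each of these. Cbx7 (chr15:79915804-79971143) overlaps Apobec3, a cytidine deaminase gene whose log2FC was -0.29 in CEpiLC against EpiLC and 0.21 in SOX2-ON against SOX2-OFF, the same direction as Cbx7, and -0.83 in SOX2-OFF and -0.62 in SOX2-ON against CEpiLC, the opposite direction.

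Cbx2 was at 69.5, 66.8 and 67.0 TPM in EpiLC cultures, 78.6, 66.7 and 81.0 in the CEpiLC group, 40.9, 37.6 and 45.6 in SOX2-OFF cells and 40.2, 38.7 and 37.6 in SOX2-ON cells. The wild-type groups overlapped, the SOX2 TetON groups overlapped, and the lines did not. The log2FC against CEpiLC was -0.86 ± 0.09 in SOX2-OFF and -0.99 ± 0.09 in SOX2-ON. With the chromosome 11 shift taken out it was -0.34 ± 0.08 and -0.45 ± 0.08, so that, unlike Pcgf2, Cbx2 remained lower than its chromosome. Its near neighbour Cbx8, at 5027 bp, had log2FC of -0.25 ± 0.23 and -0.12 ± 0.22, and its other neighbour Rbfox3, a neuronal splicing factor at 111421 bp, of -3.51 and -2.08.

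The ratio of Cbx2 to Cbx7 transcripts, per length, was 2.09 ± 0.42 in EpiLC cultures, 6.17 ± 1.39 in the CEpiLC group, 1.90 ± 0.41 in SOX2-OFF cells and 1.05 ± 0.07 in SOX2-ON cells (SD, n = 3). In wild-type cells this difference lay in Cbx7, since Cbx2 overlapped between EpiLC and CEpiLC. The chromosome 11 shift between the lines, which touches Cbx2, was not taken out of these ratios or of the shares below. Of the summed TPM of Cbx2, Cbx6, Cbx7 and Cbx8, Cbx7 made up 23.9 ± 3.06% in EpiLC cultures, 10.6 ± 1.74% in the CEpiLC group, 22.8 ± 2.76% in SOX2-OFF cells and 32.9 ± 1.36% in SOX2-ON cells. Cbx2 made up 49.1 ± 2.81%, 63.8 ± 4.28%, 42.7 ± 3.44% and 34.5 ± 0.96% in the same order. Cbx8 stayed below 5 TPM in every library, and Cbx6 was at 22.5 to 35.4 TPM, with counts that were not whole in any library by the same tolerance, as where reads are shared between genes, so that its level is uncertain.

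**Figure D4:**
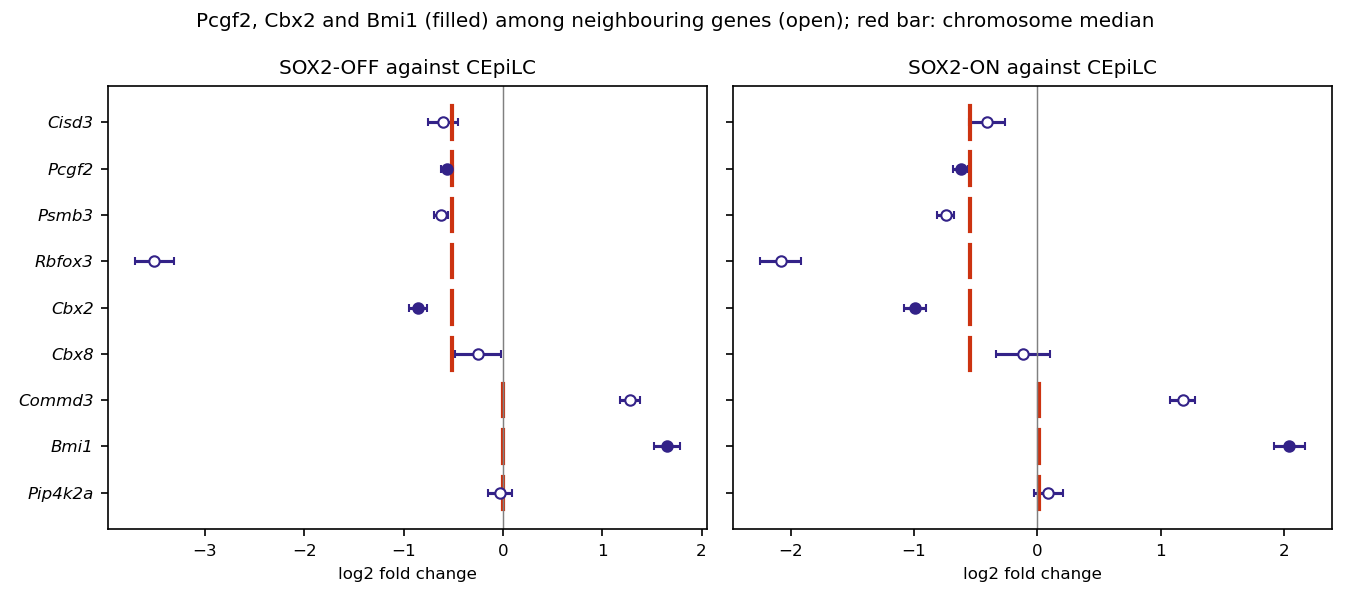
log2 fold change against CEpiLC (horizontal axis) of Pcgf2, Cbx2 and Bmi1 (filled points) and of genes near them (open points), with bars for the SE and red bars for the median of the chromosome (11 or 2). Pcgf2, Cisd3 and Psmb3 lie close to the chromosome 11 median of -0.51 in SOX2-OFF, Cbx2 lies lower at -0.86, and Commd3 and Bmi1 lie above 1 in both groups while Pip4k2a is at about 0.

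Counted over the members, the libraries of the 2 groups did not overlap on the log2 CPM (depth-normalised count) scale for 5 of 10 genes in CEpiLC against EpiLC, and the background was 52.3% of all 14196 tested genes. The count was 8 of 10 in SOX2-OFF against CEpiLC (background 55.3%), 10 of 10 in SOX2-ON against CEpiLC (59.9%) and 7 of 10 in SOX2-ON against SOX2-OFF (43.8%). These counts follow from values that were known when the genes were chosen and support nothing. The median log2FC of the 10 members was 0.11, 0.16, 0.27 and 0.13 in this order of comparisons, and that of all tested genes lay between -0.01 and 0.01. The comparisons with CEpiLC share its 3 libraries, and those with SOX2-OFF share that group.

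Across the 12 libraries, Bmi1 and Pcgf2 had a Pearson r of log2 CPM of -0.96, Bmi1 and Cbx2 of -0.96, and Pcgf2 and Cbx2, which share chromosome 11, of 0.94. Pcgf6 and Cbx7, which lie on different chromosomes, had an r of 0.95. The pattern most like that of Bmi1 was that of Papd4 (r = 0.996) and Vps50 (0.995), and that of Cbx7 was most like Rbpms and Mfap3l (0.98 each). For Pcgf2 the nearest were Zfp991 and 5730455P16Rik (0.99 each), and for Cbx2 Drg2 (0.99) and Rack1 (0.98), both on chromosome 11. The nearest for the other members were Edem1 and Ctsl for Pcgf3, Plbd1 and Twf1 for Pcgf5, Hirip3 and Arhgap12 for Pcgf6, Hnrnpdl and Rheb for Rnf2, Clip4 and Zfp651 for Pcgf1 and Cep89 and Trmu for Ring1, with r from 0.84 to 0.99. These correlations describe 12 libraries that fall into 4 groups and 2 lines. The chromosome 11 shift between the lines was not taken out, so that it is part of each r of Pcgf2 and Cbx2, also of those with Bmi1.

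The 47 companion genes of the complexes were no members and were tested with edgeR's quasi-likelihood test, with p-values adjusted over all 14196 genes. They are 27 other PRC1 genes, 13 PRC2 genes and 7 genes of the H2A deubiquitinase PR-DUB. In CEpiLC against EpiLC, 11 rose and 17 fell, where 22.1% of all tested genes rose and 20.1% fell. Their median log2FC was 0.05, against 0.01 over all tested genes. Of the other PRC1 genes 7 rose and 12 fell, of the PRC2 genes 3 and 3, and of the PR-DUB genes 1 and 2.

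Phc1, a polyhomeotic subunit that clusters canonical PRC1, fell from 259, 335 and 343 to 90.7, 125 and 82.6 TPM (log2FC -1.64 ± 0.13, edgeR adjusted p = 9.1e-07). Scml2, another canonical subunit, rose from 1.64, 1.66 and 1.21 to 6.04, 9.74 and 9.85 TPM (log2FC 2.49 ± 0.20, 6.7e-07). The groups did not overlap for either gene. Auts2, a partner of PCGF3 and PCGF5, fell by 1.55 on the log2 scale (SE 0.11, 2.6e-07), and Jarid2, which recruits PRC2, fell by 1.65 (SE 0.08, 9.6e-09). Rbbp7, a histone chaperone of several complexes, rose by 1.43 ± 0.11 (7.4e-07), and Epop, a PRC2 accessory subunit, by 1.15 ± 0.16 (7.6e-05). Among the readers, Cbx6 fell by 0.41 (SE 0.07, 0.00039), while Cbx8, with a log2FC of 0.59 ± 0.23, did not pass the test (0.055).

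**Figure D5:**
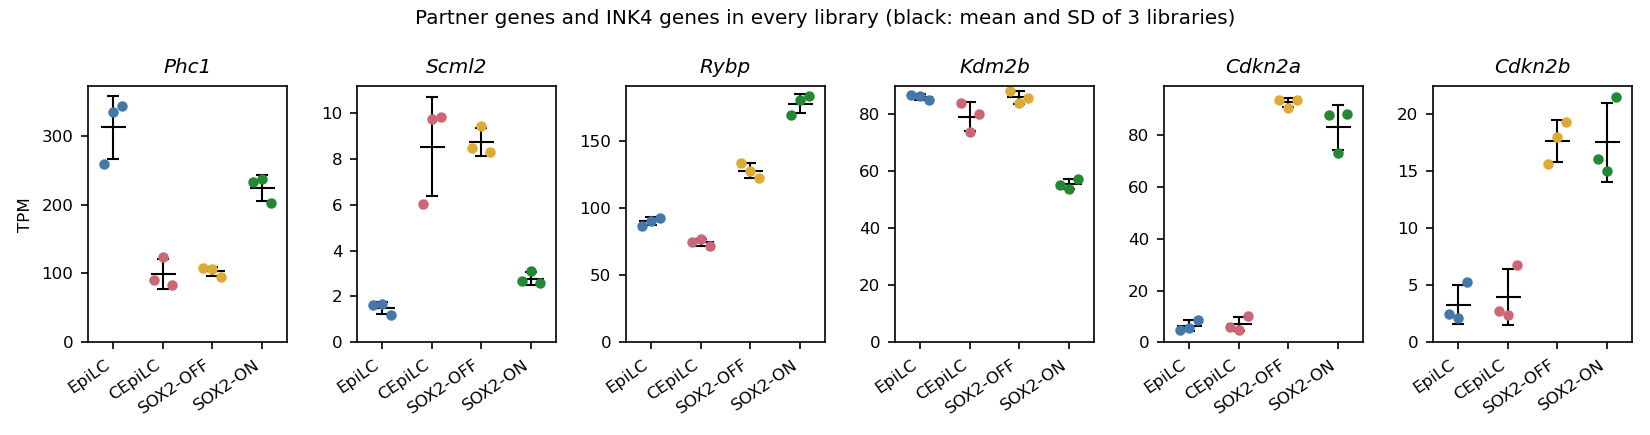
TPM (vertical axis, from 0) of 4 PRC1 partner genes and the INK4 genes Cdkn2a and Cdkn2b in each of the 12 libraries, with a point per library and black bars for the mean and SD of 3 libraries. Phc1 is at 203 to 237 TPM in SOX2-ON and 82.6 to 125 TPM in CEpiLC and SOX2-OFF, Kdm2b is lowest in SOX2-ON at 54.0 to 57.4 TPM, and Cdkn2a is at 73.1 to 93.9 TPM in the SOX2 TetON line and at most 10.1 TPM in wild-type cells.

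In SOX2-OFF against CEpiLC, 13 of the 47 companions rose and 8 fell, with 23.6% of all tested genes rising and 24.9% falling, and a median log2FC of 0.08 against -0.01. The other PRC1 genes gave 6 up and 4 down, the PRC2 genes 5 and 3, and the PR-DUB genes 2 and 1. Rybp, which takes the place of CBX proteins in non-canonical PRC1, rose from 74.7, 77.2 and 72.0 to 133, 128 and 122 TPM (log2FC 0.79 ± 0.05, edgeR adjusted p = 8.8e-08). It lies on the shifted chromosome 6, and with the shift taken out its log2FC was 0.22 ± 0.05, still called. Phc1, on the same chromosome, had a log2FC of 0.07 ± 0.13 that did not pass the test and went to -0.50 ± 0.14, which did, without the shift. Phf19, a PRC2 accessory subunit, rose by 1.03 ± 0.18 (0.00042) from low levels of 1.22 to 1.73 TPM. Ezh2, the methyltransferase of PRC2, rose by 0.45 ± 0.05 (8.4e-06) and Suz12, its scaffold, fell by 0.39 (SE 0.07, 0.0007), but with the shift of their chromosomes taken out the values were -0.12 and 0.13 and neither passed the test. The calls of Tfdp1, Cbx3, Dcaf7, Aebp2 and Foxk2, on chromosomes 8, 6 and 11, were also lost without that shift. Mbd6, a PR-DUB subunit, rose by 0.64 ± 0.08 (3.3e-05). Of the readers, Cbx6 rose by 0.22 ± 0.07 (0.018, not called without CEpiLC replicate 3 or SOX2-OFF replicate 1), and Cbx8 did not pass the test.

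In SOX2-ON against CEpiLC, 18 companions rose and 9 fell, with 27.9% and 28.6% of all tested genes, and a median log2FC of 0.09 against -0.01. The other PRC1 genes gave 9 up and 7 down, the PRC2 genes 6 and 1, and the PR-DUB genes 3 and 1. Rybp rose to 170, 180 and 184 TPM (log2FC 1.21 ± 0.05, edgeR adjusted p = 2.6e-09) and Phc1 to 233, 237 and 203 TPM (1.14 ± 0.13, 1.1e-05). With the chromosome 6 shift taken out these values were 0.64 ± 0.05 and 0.56 ± 0.14, both still called. Scml2 fell to 2.66, 3.09 and 2.6 TPM (log2FC -1.66 ± 0.18, 6.9e-06), and Kdm2b, the partner of PCGF1 that binds CpG islands, fell from 83.9, 73.8 and 80.1 to 55.2, 54.0 and 57.4 TPM (-0.65 ± 0.05, 6.6e-07). Ezh2 rose by 0.46 ± 0.05 (5.6e-06) and Cbx3, a heterochromatin protein found with PCGF6, by 0.49 ± 0.06 (1e-05), both from chromosome 6, and with the shift taken out they were at -0.12 and -0.077 and did not pass. The calls of Tfdp1, Aebp2 and Foxk2 were lost as well, and Suz12, at 0.04 with the shift, was called at 0.58 without it. Auts2, with a log2FC of 0.27 ± 0.11 (edgeR adjusted p = 0.049) and groups that overlapped, also lost its call. It lies on chromosome 5, whose median was 0.01, so that its call was borderline before any shift was taken out. Jarid2 rose by 0.62 ± 0.08 (2.5e-05) and Phf1, a PRC2 accessory subunit, by 1.10 ± 0.19 (0.00029). Foxk1, a forkhead partner of PR-DUB, rose by 0.57 ± 0.07 (1.1e-05) and Asxl1, which activates its enzyme BAP1, by 0.37 ± 0.05 (7.3e-05). Of the readers, Cbx6 rose by 0.30 ± 0.07 (0.0024).

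Between the SOX2 TetON groups, 11 companions rose in SOX2-ON against SOX2-OFF and 7 fell, with 14.8% and 14.1% of all tested genes, and a median log2FC of 0.03 against -0.01. The other PRC1 genes gave 5 up and 5 down, the PRC2 genes 4 and 1, and the PR-DUB genes 2 and 1. The number that fell was 4 without SOX2-ON replicate 2. The chromosome medians were close to 0 here. Phc1 rose by 1.07 ± 0.13 (edgeR adjusted p = 6.2e-05), Auts2 by 0.65 ± 0.11 (0.00083) and Rybp by 0.43 ± 0.04 (1.6e-05), while Scml2 fell by 1.71 (SE 0.18, 2e-05) and Kdm2b by 0.77 (SE 0.05, 6.4e-07). Of the PRC2 genes, Suz12, Jarid2 and Mtf2 rose by 0.42 ± 0.07, 0.42 ± 0.08 and 0.41 ± 0.05 (0.00075, 0.0016 and 6.7e-05). Phf19, the PRC2 gene that fell, had a log2FC of -0.66 ± 0.18 (edgeR adjusted p = 0.014). Of the PR-DUB genes, Asxl1 rose by 0.48 ± 0.05 (3.1e-05), and Mbd6, the one that fell, had a log2FC of -0.35 ± 0.08 (0.0064). The readers Cbx6 and Cbx8 did not pass the test, with log2FC of 0.08 ± 0.07 and 0.14 ± 0.23.

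The INK4 genes Cdkn2a and Cdkn2b encode cell cycle inhibitors and are the classical genes silenced by BMI1. Cdkn2a was at 4.57, 5.69 and 8.67 TPM in EpiLC cultures, 6.04, 4.92 and 10.1 in the CEpiLC group, 93.9, 90.7 and 93.8 in SOX2-OFF cells and 87.95, 73.1 and 88.4 in SOX2-ON cells. Cdkn2b was at 2.10 to 6.81 TPM in wild-type cells and at 15.0 to 21.5 TPM in the SOX2 TetON line. Both genes stood with Bmi1 in being higher in both SOX2 TetON groups, without overlap. Against CEpiLC, Cdkn2a rose by 3.81 ± 0.22 in SOX2-OFF (edgeR adjusted p = 8.2e-08) and by 3.62 ± 0.21 in SOX2-ON (4.5e-08), and Cdkn2b by 2.28 ± 0.35 (0.00016) and 2.21 ± 0.35 (0.00014). Neither gene passed the test in CEpiLC against EpiLC or in SOX2-ON against SOX2-OFF. The part of the extraembryonic endoderm markers, which moved with the same groups, in the levels of Bmi1, Cdkn2a and Cdkn2b was not tested.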

How the data were processed

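RNA was polyadenylated mRNA, sequenced as strand-specific single-end 76 bp reads. Per the labels and the study's methods, the authors trimmed reads (cutadapt 1.16), aligned them to mm10 (STAR 2.5.2a) and estimated gene levels (RSEM 1.3.0). They deposited expected counts, which share reads between genes that cannot be told apart, and TPM values per gene and library. The depth per library was 10408252 to 27337740 expected counts, and counts of a low gene carry counting error on top of the spread between cultures.

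Expected counts were rounded. Genes that passed edgeR's filterByExpr (14196 of 24736) were fitted in R 4.3.3 with edgeR 4.0.16 (TMM scaling, quasi-likelihood) over all 12 libraries with 4 groups and no covariates. P-values were Benjamini-Hochberg adjusted over all tested genes and called at 0.05 or below. Levels were compared between genes only as TPM. Groups compared did not overlap where all 3 libraries of one lay on one side of the other's on log2 CPM (prior count 0.5). The chromosome shift was taken out, as an alternative, with the median deviation of each chromosome's genes of at least 4 mean log2 CPM in each library as an offset. Gene positions and promoter windows are from RefSeq GRCm38.p6. The members, companion lists and rules were chosen with earlier results of these data known. Companions were named from up to 3 called genes a direction, list and comparison, with groups that do not overlap, by size of log2FC. From these the text shows some, not always the largest. The readers Cbx6 and Cbx8 were named as well. For 1 of the companion genes, which is included in the counts, no values are reported here. Ezh2, Cbx3 and the genes named for losing or gaining a call without the chromosome shift were chosen after their values were seen. Named likeness needed a mean of at least 2 log2 CPM. Other choices tried were RLE scaling, library size alone, a filter of over 1 CPM in 3 libraries, no filter, DESeq2 1.42.0, limma-voom (limma 3.58.1), a replicate block, only the 6 libraries compared and leaving out each replicate. The fit was tested on simulated data.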

Additional observations from a re-analysis of the deposited data

How the results depend on the processing

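Of the members' log2 fold changes under all alternatives, 590 moved by less than the spread between replicates and 9 moved further, of which 6 with the chromosome shift taken out and 3 with library size alone. Leaving out 1 of 3 replicates can hardly move a mean by more than this spread. Those alternatives, which are part of the 590, are therefore no sign of stability. Among members whose groups did not overlap, 1 changed sign, Pcgf1 in SOX2-ON against CEpiLC (-0.25 with the chromosome shift taken out). Where the groups overlapped, the sign also turned in CEpiLC against EpiLC for Pcgf2 (-0.016 without EpiLC replicate 1) and Pcgf5 (0.02 without CEpiLC replicate 1), in SOX2-OFF against CEpiLC for Pcgf1 (0.07 without SOX2-OFF replicate 1) and in SOX2-ON against SOX2-OFF for Pcgf5 (-0.03 without SOX2-ON replicate 3) and Ring1 (0.19 without SOX2-OFF replicate 2). Of the companions called, those that changed sign with the chromosome shift taken out were Ezh2 (-0.12) and Cbx3 (-0.077) in SOX2-ON against CEpiLC and Ezh2 (-0.12) and Suz12 (0.13) in SOX2-OFF against CEpiLC. This alternative compares each gene with the other genes of its chromosome, and the cause of the shift was not tested. Among the counts of companions called, the one that moved by more than 1.5 times was the number that fell in SOX2-ON against SOX2-OFF, at 7 with all libraries and 4 to 9 when a replicate was left out, lowest without SOX2-ON replicate 2. Same-numbered replicates had correlated deviations of 0.04 to 0.17, not above 0.1 in every pair of any comparison, although in each comparison all 6 libraries correlated best with their own number. With the replicate number as a block, genes called over the whole table went from 5994 to 6491 in CEpiLC against EpiLC, 6885 to 7285 in SOX2-OFF against CEpiLC, 8020 to 8390 in SOX2-ON against CEpiLC and 4091 to 4625 in SOX2-ON against SOX2-OFF, and companions called higher were 13, 16, 18 and 11 in this order. Some calls of companions, such as those of Kdm2b in CEpiLC against EpiLC and of Max and Phf19 in SOX2-ON against SOX2-OFF, were lost when single libraries were left out. Shares of a paralogue pool were computed from TPM. With CPM, which is not per length, nearly all of them (45) moved by more than 1 SD.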
